A study of Mus musculus with 6 samples.

Results

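The nuclear-encoded subunits of oxidative phosphorylation were examined in the cranial base, the cartilage plate beneath the brain, of mouse embryos at the stage E15.5, counted in days of gestation. Members were all entries of the expression table whose symbol began with Ndufa, Ndufb, Ndufc, Ndufs, Ndufv, Uqcr, Sdha to Sdhd, Cox4i, Cox5, Cox6, Cox7, Cox8 or Atp5, whose mean reached 1 FPKM (fragments per kilobase of transcript, relative to the fragments of the library) over the 6 libraries. Of 96 such entries, 7 Ndufaf assembly factors, 3 pseudogenes marked -ps and 2 entries under 1 FPKM were left out. This left 84 members of 43496 entries, 15710 of which reached the same minimum and were tested. The members were 38 subunits of complex I, 4 of complex II, 8 of complex III, 15 of complex IV and 15 of complex V, 80 in all. The other 4, Sdhaf1, Sdhaf2, Atp5s and Atp5sl, share a prefix with subunits but are factors, not subunits. Ndufa4 stands with complex I by its name, although it is now counted with complex IV, and no entry had the symbol Cox4i1. The study set 3 control embryos against 3 embryos labelled Memo1 mutant, whose allele came from the chemical mutagen ENU (N-ethyl-N-nitrosourea). All were of the C57BL/6J strain, and each gave 1 library. The labels do not say what genotype the controls had at Memo1. The tissue was dissected whole, so that fewer cells of a type and less RNA per cell cannot be told apart.

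Oxidative phosphorylation makes most of the ATP of respiring cells. Complexes I and II pass electrons from NADH and succinate to ubiquinone, complex III hands them to cytochrome c, and complex IV hands them to oxygen. The pumping of protons by complexes I, III and IV drives complex V, the ATP synthase. Most subunits are encoded in the nucleus, and the few encoded in mitochondrial DNA join them in the inner membrane. Cartilage is a tissue of low oxygen in which glycolysis is prominent, whereas skeletal muscle and brown fat are rich in respiratory complexes and use some isoforms of their own.

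Many promoters of these genes are known to lack a TATA box and to be bound by the factors NRF1 and GABP, the latter of the ETS family. Promoter windows from RefSeq (GRCm38.p6, 250 bases before to 50 after the start) were found for 71 members, with 77 windows. Both strands were searched for exact letters, and the motifs may overlap. The ETS letters CCGGAAG stood in 23.4% of the members' windows, in 8.86% of 32851 windows of all genes and in 16.1% of 14024 windows of tested genes. The NRF1 letters, GCGC, AT and GCGC in a row, stood in 6.49%, 0.971% and 1.86% of the same sets, and the shorter NRF1 site TGCGCA in 24.7%, 7.76% and 13%. At least 1 of these motifs was in 44.2% of the members' windows, against 15.6% of all and 26.9% of tested genes' windows. The YY1 letters AAGATGGCG were in 11.7%, 1.4% and 2.71%, those of ESRRA, TCAAGGTCA, in 2.6%, 0.423% and 0.257%, and TATAAA in 9.09%, 13.6% and 7.25%. The median GC content of the windows was 58.3% for members, 52.7% for all genes and 60.7% for tested genes. Several genes described further on had windows with none of the motifs searched for, among them Ndufb5, Cox7a2l, Ndufa10, Uqcrfs1, Cox7a1 and Atp5b. Uqcrc2 and Atp5a1 were among the members for which no window was found. The 100 bases before the start are shown for 5 members from complexes I, III, IV and V whose values are given further on. All 5 hold a match to the NRF1, shorter NRF1 or ETS letters, as 44.2% of the members' windows do. They were chosen after those values were seen. The matched letters are in capitals.
Ndufb7: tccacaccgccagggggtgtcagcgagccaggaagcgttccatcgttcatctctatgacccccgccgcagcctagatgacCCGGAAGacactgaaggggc
Uqcr11: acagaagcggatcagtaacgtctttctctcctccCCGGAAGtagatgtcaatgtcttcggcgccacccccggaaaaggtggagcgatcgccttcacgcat
Cox5b: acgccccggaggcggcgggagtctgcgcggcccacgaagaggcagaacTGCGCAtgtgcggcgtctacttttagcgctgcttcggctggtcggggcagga
Cox6b1: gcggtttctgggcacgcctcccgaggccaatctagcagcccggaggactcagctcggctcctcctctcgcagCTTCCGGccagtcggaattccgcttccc
Atp5k: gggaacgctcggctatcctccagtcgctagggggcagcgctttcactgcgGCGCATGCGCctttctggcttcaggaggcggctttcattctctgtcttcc

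These stretches lie at chr8:83566658-83566757 on the plus strand (Ndufb7), chr10:80406822-80406921 on the minus strand (Uqcr11), chr1:36691387-36691486 on the plus strand (Cox5b), chr7:30626115-30626214 on the minus strand (Cox6b1) and chr5:108434400-108434499 on the minus strand (Atp5k). The ETS letters began 20 bases before the start in Ndufb7 and 66 bases before it in Uqcr11. In Cox6b1 they stood on the opposite strand, read as CTTCCGG, beginning 28 bases before the start. Cox5b held the shorter NRF1 site from 52 bases before the start, and Atp5k the full NRF1 letters from 50 bases before it. The matches describe the letters of these windows, and binding was not measured.

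One mutant library stood apart and touches every value. The library of mutant 1 listed 30811 entries at 0, against 19787 to 20594 in the other 5, and its correlation with them across genes was 0.748 to 0.762, against 0.968 to 0.981 among those 5. Among the members it was the highest or lowest of the 6 libraries for 65 of 84, lowest for 37 and highest for 28, against 85.2% of all tested genes. It listed 4 members at 0, Ndufs7, Cox7a1, Atp5l and Atp5g2. None of the 13 entries for subunits encoded in mitochondrial DNA reached a mean of 1 FPKM, so none was tested. The 4 members at 0 in mutant 1 were at 2.83 to 85.1 FPKM in the other 5 libraries. Whether such a 0 is a failed estimate was not tested. Counts and medians over the members are therefore given from all libraries with equal weights, with array weights, which give mutant 1 a weight of 0.0329 against 1.47 to 2.76 elsewhere, and without mutant 1, and single genes at least with equal and array weights where a change is given. The table holds no counts. From the worth of 1 fragment among low values, controls 2 and 3 and mutants 2 and 3 had 79.8%, 93.3%, 117% and 151% of the depth of control 1, and mutant 1 had too few such values to tell. Memo1 itself lay at 19.1 to 23.1 FPKM in controls and 20.1 to 25.4 FPKM in mutants, so its level does not separate the genotypes. Mutant 3 was female by Xist and the other 5 embryos were male.

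Subunit mRNAs were abundant in the cranial base. The median member had a mean of 104.8 FPKM, against 11.4 FPKM over all tested genes, and 45 of 84 members (53.6%) reached 100 FPKM, against 5.2% of tested genes. The highest was Atp5b, the catalytic beta subunit of the ATP synthase, with a mean of 881.5 FPKM over the 6 libraries. Within the other complexes the means reached 444.9 FPKM for Cox6b1, 363.9 FPKM for Uqcrh, 285.6 FPKM for Ndufa3 and 169.8 FPKM for Sdhc. At the lower end stood Ndufb4 at 15 FPKM, Uqcrfs1 at 62 FPKM and Sdhb at 83.8 FPKM, with the lowest of complexes IV and V, Cox7a1 and Atp5g2, listed at 0 in 1 library. Levels within a complex thus spanned a wide range although its subunits are built in fixed proportions. Several members share sequence with transcripts of other genes, and the effect of this on their counting was not tested. Of the 50-base stretches of the Atp5l transcript, 84.8% also occur in transcripts of 14 other genes, and 47.9% of those of Atp5h in 18. For Ndufb4, Atp5g2 and Cox7a1, 37%, 14.8% and 0% are shared. Of the 2 entries under 1 FPKM, Cox8c was listed at 0 in all 6 libraries, and Cox7b2 was at 0.352 FPKM in control 2, 0.434 FPKM in mutant 3 and 0 elsewhere.

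The mutant libraries held a smaller share of their summed FPKM in the members than the controls did. The share was 2.36%, 2.32% and 2.44% in the 3 controls and 1.99%, 2.16% and 2.14% in mutants 1 to 3. Every mutant thus lay below every control, with a mean difference of -0.279 percentage points against a control SD of 0.0621 points. All 5 complexes showed this order. Complex I subunits held 0.787% to 0.829% in controls and 0.706% to 0.749% in mutants, and complex V subunits 0.715% to 0.759% and 0.616% to 0.669%. Complex IV, whose terminal oxidase reaction consumes the oxygen, held 0.401% to 0.429% and 0.301% to 0.382%. Complex III held 0.303% to 0.324% and 0.265% to 0.275%, and complex II, which also belongs to the tricarboxylic acid cycle, 0.0952% to 0.101% and 0.0684% to 0.0889%. In the plain sums every mutant also lay below every control: 12160, 12043 and 12713 FPKM in controls, and 11280, 11014 and 10523 FPKM in mutants. Among the mutants, however, mutant 1 had the lowest share but the highest sum. Its FPKM over all entries summed to 567601, against 492572 to 520337 in the other libraries. By plain sums it was the highest mutant for complexes I, III and V. No test was run on these sums, because the members were chosen with earlier results known.

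**Figure D1:**
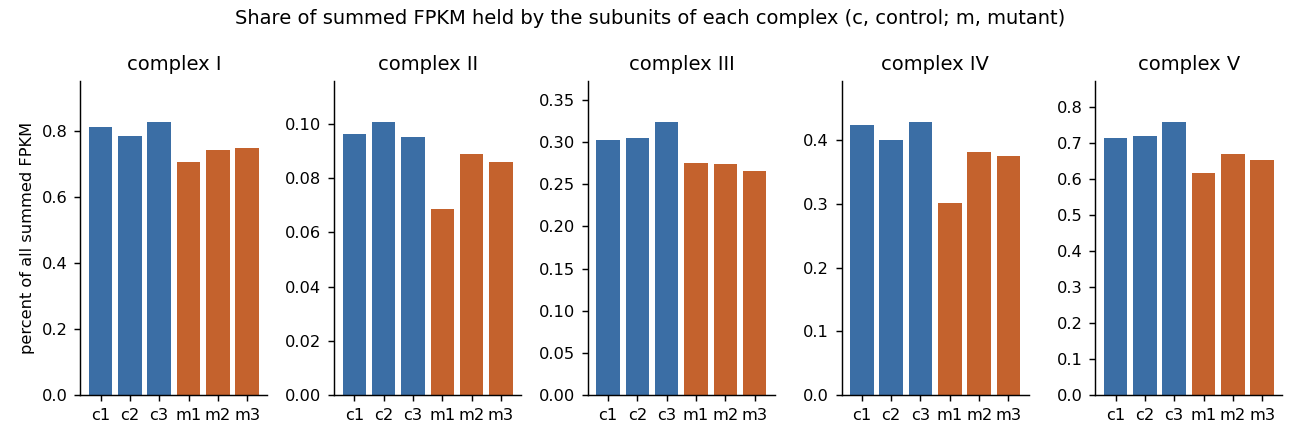
Percent of all summed FPKM held by the subunits of each complex (vertical axis, from 0, scaled separately for each panel) in each of the 6 libraries (c1 to c3, controls; m1 to m3, mutants). In all 5 panels each mutant bar is lower than each control bar, and mutant 1 is the lowest for complexes I, II, IV and V.

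Few single genes passed a test over all genes, and with equal weights none did. The limma fit on log2(FPKM + 1) called 0 of 84 members at a Benjamini-Hochberg adjusted p of 0.05, and 0% of all 15710 tested genes. The smallest adjusted p of a member was 0.695. At an unadjusted p under 0.05, 17 members were lower in mutants (3.01% of all tested genes were) and 1 was higher (2.11% were). The median log2 change of the members, mutant minus control, was -0.16, against -0.05 over all tested genes, and 66 of 84 lay below 0, against 54.2% of all. With array weights limma called 6 members, all lower in mutants, where 2.04% of all tested genes were called, 1.32% lower and 0.719% higher. The members' median was then -0.20 against -0.02 over all tested genes, with 73 of 84 below 0 against 53.5%. At an unadjusted p under 0.05, 43 members were lower and 1 was higher with these weights, where 10.5% and 7.85% of all tested genes were. Without mutant 1 the fit called 0 members and 0.0446% of all tested genes, 0.0318% lower and 0.0127% higher. Again 73 of 84 members lay below 0, against 52.9% of all. The smallest member adjusted p was 0.0714, 31 members were lower and 2 higher at an unadjusted p under 0.05 (9.41% and 7.56% of all), and the median was -0.20 against -0.01. In the authors' deposited table, 15 members were lower in mutants at a p-value under 0.05 and 0 were higher, where 3.64% of all tested genes were lower, with the smallest for Uqcrfs1 at 0.00236. The 6 genes called with array weights were Cox5b, Cox7a2l, Atp5k, Ndufb5, Uqcrc2 and Atp5a1. Without mutant 1, limma's adjusted p for these was 0.0714, 0.0955, 0.0904, 0.103, 0.0916 and 0.13 in the same order. Over the alternatives run, limma's adjusted p of these reached 0.872 for all but Uqcrc2, for which it reached 0.9998. Embryo titles begin with a word whose meaning the labels do not give. Between control 1 and mutant 1, which share M3150, the members' median difference was -0.11 (all tested genes -0.08), with 48 of 84 below 0 against 53.3% of all. Between controls 2 and 3 and mutant 3, which share M3159, it was -0.21 (all tested genes -0.01), with 70 of 84 below 0 against 51.1% of all. Mutant 3 was female and controls 2 and 3 were male, so that sex and genotype cannot be told apart there.

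Groups without overlap made up a larger share of the members than of all tested genes. All 3 mutants lay below all 3 controls for 26 of 84 members, where 11.9% of all tested genes did so, and above them for 1, Cox6b2, where 8.98% did so. By complex these were 9 of 38 subunits of complex I, 1 of 4 of complex II, 3 of 8 of complex III, 5 of 15 of complex IV and 7 of 15 of complex V. Leaving mutant 1 aside, mutants 2 and 3 lay below each control for 44 of 84 members (20.1% of all tested genes) and above for 3, Cox6b2, Atp5g2 and Atp5l (16.2% of all). For complexes I to V these were 17 of 38, 2 of 4, 7 of 8, 7 of 15 and 9 of 15 subunits. Abundant genes differ from low ones in spread: the median SD of log2 values among controls was 0.081 for members and 0.12 for all tested genes. When only genes averaging 10 FPKM or more were taken, which hold 79 members, all mutants were below all controls for 24 members against 12.5% of such genes and above them for 1 against 10.2%, and mutants 2 and 3 were below for 42 members against 23% and above for 1 against 15.3%. Relative to the control mean, the members' median log2 difference was -0.01, -0.04 and 0.04 in controls 1 to 3 and -0.12, -0.15 and -0.20 in mutants 1 to 3, while that of all tested genes was 0.01, 0.01, -0.03, -0.08, -0.01 and -0.01. In mutants 2 and 3, 72 and 74 of the 84 members lay below the control mean, where 52.3% and 52.4% of all tested genes did. In mutant 1 it was 49 of 84, where 53% of all did.

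**Figure D2:**
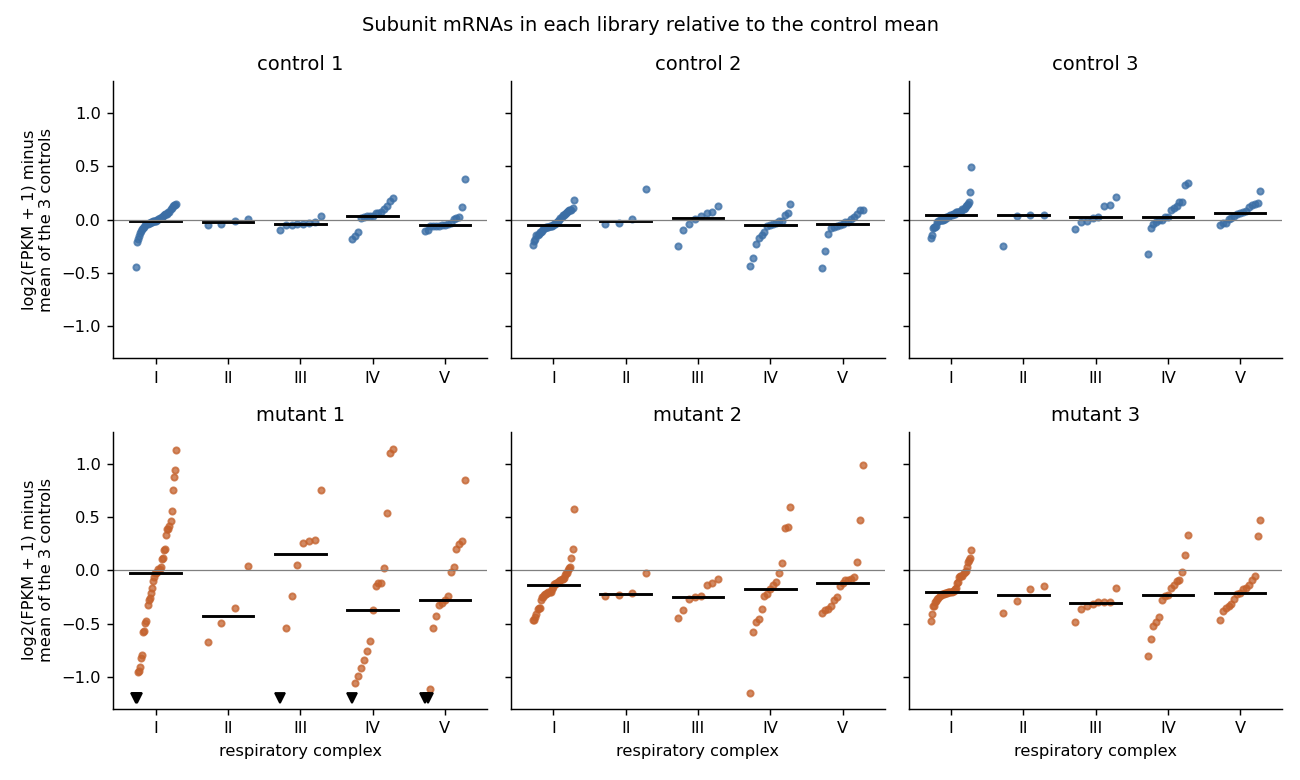
Each of the 80 subunits as 1 point in each library, by complex (horizontal axis), with its log2(FPKM + 1) minus the mean of the 3 controls on the vertical axis; black lines are medians of a complex. The points of mutants 2 and 3 sit mostly below 0, while those of mutant 1 scatter widely, with 6 subunits beyond -1.2 drawn as triangles at the edge.

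Complex I is built of core subunits, which carry flavin and iron-sulfur clusters or line the membrane arm, and of accessory subunits around them. Its median log2 change was -0.12 with equal weights and -0.19 with array weights, with 27 and 33 of 38 subunits below 0. Ndufb5, an accessory subunit of the membrane arm, was at 108, 116 and 119 FPKM in controls and 59, 82.2 and 90.3 FPKM in mutants 1 to 3. All 3 mutants were below all controls. Its log2 change was -0.58 ± 0.17 (SE, n = 3 per group) with equal weights (limma adjusted p = 0.695), and it fell by 0.39 ± 0.07 with array weights (limma adjusted p = 0.0491). Ndufb7, another accessory subunit, whose ETS letters are shown above, was at 135, 132 and 149 FPKM in controls, 158 FPKM in mutant 1, and 107 and 104 FPKM in mutants 2 and 3. Mutant 1 was thus the highest and mutants 2 and 3 the lowest libraries, and the log2 change was -0.19 ± 0.18 with equal weights (limma adjusted p = 0.695) and -0.38 ± 0.07 with array weights (limma adjusted p = 0.0511). Without mutant 1, limma's adjusted p for Ndufb7 was 0.112. Ndufa10, an accessory subunit chosen after its values were seen, was at 230, 230 and 244 FPKM in controls and 64.3, 183 and 168 FPKM in mutants, with no overlap. The iron-sulfur subunit Ndufs7 was at 74.2, 78.6 and 85.1 FPKM in controls, listed at 0 in mutant 1, and at 77.9 and 68.2 FPKM in mutants 2 and 3, within or just below the controls. Ndufs6, also chosen after its values were seen, was at 77.4 to 85.9 FPKM in controls and 78 and 71.8 FPKM in mutants 2 and 3, but at 182 FPKM in mutant 1. The highest and lowest of the complex, Ndufa3 and Ndufb4, overlapped between groups: Ndufa3 ran from 237 to 291 FPKM in controls and from 214 to 455 FPKM in mutants, and Ndufb4 from 14.4 to 18.5 FPKM and from 10.8 to 15.9 FPKM.

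Complex II oxidizes succinate and has only 4 subunits, all encoded in the nucleus. All 4 log2 changes were below 0, with a median of -0.24 with equal and -0.22 with array weights. None passed the test in any fit. The iron-sulfur subunit Sdhb was at 90.2, 88.9 and 93.7 FPKM in controls and 70.9, 77.4 and 82 FPKM in mutants, the only subunit of the complex whose groups did not overlap, with a log2 change of -0.24 ± 0.09 with equal weights (limma adjusted p = 0.695) and -0.17 ± 0.06 with array weights (limma adjusted p = 0.199). The membrane anchor Sdhd was at 108, 112 and 115 FPKM in controls, 115 FPKM in mutant 1 and 94.2 and 91.1 FPKM in mutants 2 and 3. Its log2 change was -0.16 ± 0.12 with equal weights (limma adjusted p = 0.695), -0.27 ± 0.06 with array weights (limma adjusted p = 0.0697) and -0.27 without mutant 1 (limma adjusted p = 0.148). Sdhc, the other anchor, was at 177 to 188 FPKM in controls and 129 to 179 FPKM in mutants. Sdha, the flavoprotein, ran from 99 to 144 FPKM in controls and from 73.6 to 101 FPKM in mutants and was named after its values were seen. Both of these overlapped between the groups.

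Complex III, the cytochrome bc1 complex, had all 8 subunits below 0, with a median log2 change of -0.13 with equal and -0.30 with array weights. Uqcrc2, a core subunit, was at 161, 181 and 156 FPKM in controls and 121 and 118 FPKM in mutants 2 and 3, but at 281 FPKM in mutant 1. Mutants 2 and 3 were below every control and mutant 1 above every one. The log2 change was -0.06 ± 0.35 with equal weights (limma adjusted p = 0.929), while with array weights it fell by 0.48 ± 0.09 (limma adjusted p = 0.0491), and without mutant 1 it was -0.47 (limma adjusted p = 0.0916). Uqcrfs1, the Rieske iron-sulfur protein, was less divided among the mutants, at 66.2, 71 and 67.2 FPKM in controls and 57.4, 56.3 and 53.6 FPKM in mutants. Its log2 change was -0.28 ± 0.09 with equal weights (limma adjusted p = 0.695) and -0.32 ± 0.06 with array weights (limma adjusted p = 0.0567). Uqcrb and Uqcrc1, chosen after their values were seen, followed the order of Uqcrc2: Uqcrb was at 81.2 to 83.9 FPKM in controls, 99.9 FPKM in mutant 1 and 63.6 and 67.1 FPKM in mutants 2 and 3, and Uqcrc1 at 124 to 132, 154, 108 and 99.9 FPKM. The small subunits Uqcr11 and Uqcr10 had all mutants below all controls, at 280 to 328 FPKM against 205 to 252 FPKM and at 250 to 295 FPKM against 107 to 243 FPKM, and were likewise chosen after their values were seen. Uqcrh, a hinge protein for cytochrome c1 and the highest of the complex, was at 360 to 392 FPKM in controls and 332 to 386 FPKM in mutants. Uqcrq, picked in the same way, was at 187 to 256 FPKM in controls and 178 to 269 FPKM in mutants, and both of these genes overlapped.

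Complex IV, cytochrome c oxidase, had the 2 members with the smallest p under array weights. Its median log2 change was -0.30 with equal and -0.20 with array weights, with 12 of 15 below 0 in both. Cox5b, a peripheral subunit on the matrix side, was at 99.8, 94.4 and 99.9 FPKM in controls and 51.5, 71.2 and 72.2 FPKM in mutants. The groups did not overlap, and the controls differed by far less than the gap to the nearest mutant. The mean was 98 ± 3.14 FPKM (SD, n = 3) in controls and 65 ± 11.7 FPKM (SD, n = 3) in mutants, a log2 change of -0.60 ± 0.15 (SE; limma adjusted p = 0.695). With array weights it fell by 0.44 ± 0.06 (limma adjusted p = 0.0273), and without mutant 1 the change was -0.45 (limma adjusted p = 0.0714). Cox7a2l has been described as linking complexes III and IV in supercomplexes, a role that was not examined in these embryos. It was at 124, 125 and 114 FPKM in controls and 76, 93.7 and 86.3 FPKM in mutants, also without overlap. Its log2 change was -0.51 ± 0.11 with equal weights (limma adjusted p = 0.695), and with array weights it fell by 0.45 ± 0.07 (limma adjusted p = 0.0332). Cox6b1, the most abundant subunit of the complex, was at 482, 473 and 474 FPKM in controls and 439, 408 and 392 FPKM in mutants. The groups were apart although the change was small, -0.21 ± 0.07 with equal weights (limma adjusted p = 0.695) and -0.26 ± 0.06 with array weights (limma adjusted p = 0.0621). Cox6a1, Cox7a2 and Cox8a are the widely expressed forms of subunits that also have tissue-restricted isoforms, and all overlapped between the groups. Cox6a1 ran from 340 to 407 FPKM in controls and from 180 to 349 FPKM in mutants, Cox7a2 from 130 to 140 and 121 to 131 FPKM, and Cox8a from 296 to 318 and 170 to 320 FPKM.

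The tissue-restricted isoforms of complex IV did not move together. Cox7a1, the heart and skeletal muscle form, was at 10.6, 6.86 and 10.3 FPKM in controls, listed at 0 in mutant 1, and at 3.54 and 4.79 FPKM in mutants 2 and 3, all below the controls. It amounted to 7.56%, 5.24% and 7.94% of the FPKM of its common form Cox7a2 in controls and 2.7% and 3.82% in mutants 2 and 3. Cox8b, used in muscle and brown fat, was at 54.7, 37.4 and 64.1 FPKM in controls and 51.7, 36 and 35 FPKM in mutants, which overlap. Cox6a2, also a muscle form, was at 69.9, 70.4 and 101 FPKM in controls and 73, 71.8 and 50.4 FPKM in mutants, again with overlap. In the other direction stood Cox6b2, known as a testis form, at 43.1, 36.2 and 39.2 FPKM in controls and 87.8, 52.5 and 49.8 FPKM in mutants. It was the only member with every mutant above every control, with a log2 change of 0.62 ± 0.24 with equal weights (limma adjusted p = 0.695) and 0.37 ± 0.09 with array weights (limma adjusted p = 0.086). Relative to Cox6b1 it amounted to 8.93%, 7.66% and 8.26% in controls and 20%, 12.9% and 12.7% in mutants. Cox4i2, a form linked to low oxygen, was at 14.9, 12 and 16.1 FPKM in controls and 31.7, 22 and 15.8 FPKM in mutants, and mutant 3 lay within the controls. Ndufa4l2, a hypoxia-responsive relative of Ndufa4, was at 107, 86.3 and 115 FPKM in controls and 110, 152 and 107 FPKM in mutants, while Ndufa4 was at 268, 221 and 242 FPKM and 172, 182 and 208 FPKM. The ratio of the pair was 40%, 39.1% and 47.3% in controls and 63.8%, 83.9% and 51.6% in mutants, so each mutant ratio exceeded each control ratio; it was not tested.

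**Figure D3:**
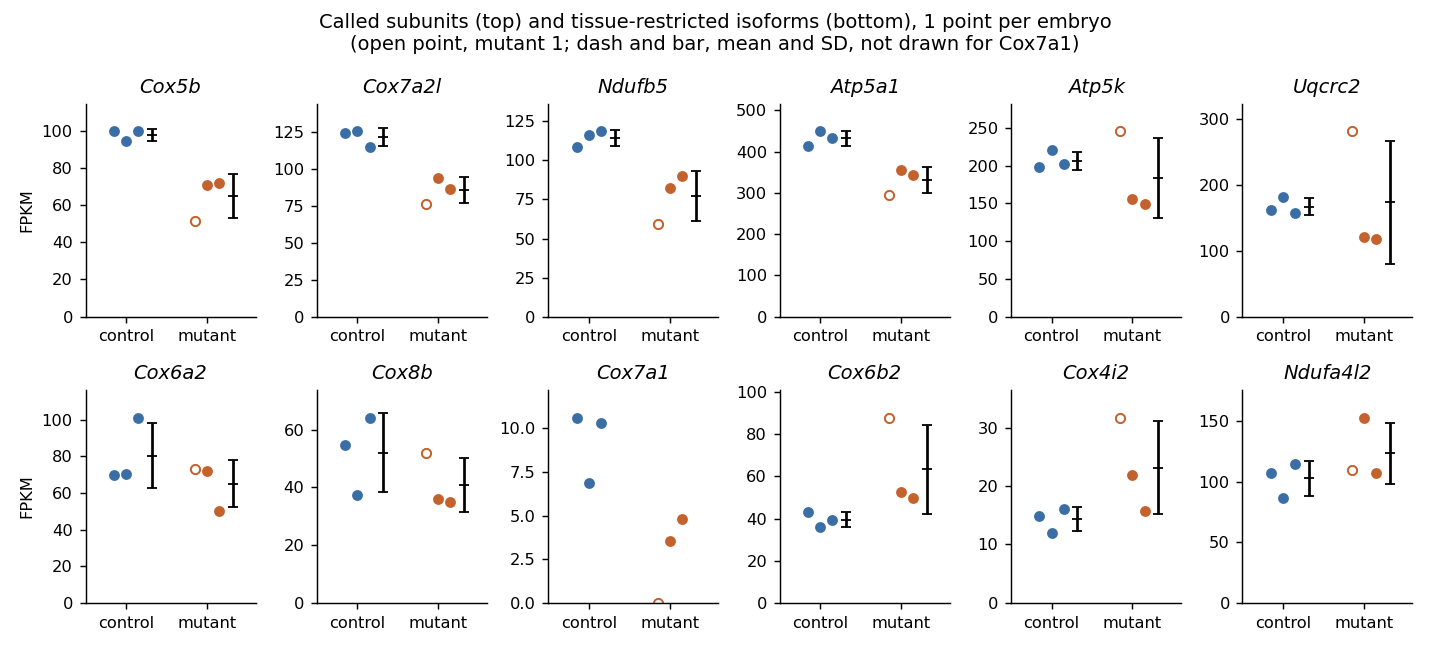
FPKM (vertical axes, from 0) of the 6 subunits called lower with array weights (top row) and of 6 tissue-restricted isoforms (bottom row), 1 point per embryo, with mean and SD beside each group except for Cox7a1. Mutant 1, drawn open, is the lowest library for Cox5b, Cox7a2l, Ndufb5 and Atp5a1 but the highest for Atp5k and Uqcrc2, and Cox6b2 has every mutant above every control.

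Complex V, the ATP synthase, had 14 of 15 subunits below 0 with equal weights and 13 with array weights, with medians of -0.21 and -0.22. Atp5a1, the alpha subunit of the catalytic head, was at 414, 449 and 432 FPKM in controls and 296, 355 and 343 FPKM in mutants. No mutant reached a control. Its log2 change was -0.39 ± 0.09 with equal weights (limma adjusted p = 0.695), and with array weights it fell by 0.32 ± 0.06 (limma adjusted p = 0.0491). Atp5b, its catalytic partner, was at 911, 930 and 986 FPKM in controls and 752, 904 and 806 FPKM in mutants, with a log2 change of -0.20 ± 0.09 with equal weights (limma adjusted p = 0.695) and -0.16 ± 0.07 with array weights (limma adjusted p = 0.265). Atp5k, the membrane subunit e, whose full NRF1 letters are shown above, was at 198, 220 and 202 FPKM in controls, 245 FPKM in mutant 1, and 156 and 149 FPKM in mutants 2 and 3. As for Uqcrc2, mutant 1 was above every control and the other mutants below every one. The log2 change was -0.21 ± 0.20 with equal weights (limma adjusted p = 0.697), and with array weights it fell by 0.44 ± 0.07 (limma adjusted p = 0.0368). Atp5c1, the gamma subunit of the rotor, was at 202, 204 and 195 FPKM in controls and 165, 155 and 173 FPKM in mutants, without overlap. Atp5o, a part of the stalk that holds the head, was at 251 to 263 FPKM in controls, 295 FPKM in mutant 1 and 216 and 197 FPKM in mutants 2 and 3. Atp5c1 and Atp5o were chosen after their values were seen, and 50.3% of the stretches of Atp5o are shared with other transcripts.

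The membrane ring of complex V is built from 1 protein that Atp5g1, Atp5g2 and Atp5g3 all encode. Atp5g1 was at 89.1, 89 and 101 FPKM in controls and 42.2, 73.4 and 72.4 FPKM in mutants, without overlap, a log2 change of -0.60 ± 0.23 with equal weights and -0.35 ± 0.08 with array weights (limma adjusted p = 0.0735 with the weights). Atp5g3, the most abundant of these genes, was at 306, 320 and 364 FPKM in controls and 325, 312 and 316 FPKM in mutants, all within the controls. Atp5g2 was at 3.78, 2.83 and 4.67 FPKM in controls, listed at 0 in mutant 1, and at 8.34 and 4.86 FPKM in mutants 2 and 3. With equal weights the log2 change of Atp5g3 was -0.05 ± 0.09 (limma adjusted p = 0.775), and that of Atp5g2, which rests on the 0 in mutant 1, was below 0 as well. With array weights Atp5g2 was above 0 and the other two ring genes were below it. Atp5l, subunit g, was at 12.3, 6.45 and 9.75 FPKM in controls, 0 in mutant 1, and 13.1 and 13.2 FPKM in mutants 2 and 3. Most of its sequence is shared with transcripts of other genes. Of the 4 factors, Sdhaf1 was at 6.58 to 7.16 FPKM in controls, 0.000161 FPKM in mutant 1 and 6.48 and 5.96 FPKM in mutants 2 and 3, and Atp5s at 3.8 to 4.32 FPKM in controls and 2.87 to 6.49 FPKM in mutants. The other two were far above the controls in mutant 1 only: Atp5sl was at 13.4 to 14.5 FPKM in controls, 81.4 FPKM in mutant 1 and 13.7 and 15.8 FPKM in mutants 2 and 3, and Sdhaf2 at 13.5 to 14.1, 31.7, 13.2 and 13 FPKM.

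Other mitochondrial gene lists were read from the same fit. None had a gene called with equal weights or without mutant 1. Of all tested genes, 54.2% lay below 0 with equal weights and 53.5% with array weights, and 1.32% were called lower with array weights. The tricarboxylic acid cycle, which feeds NADH and succinate to complexes I and II, had a median log2 change of -0.28 over 18 genes with equal weights and -0.31 with array weights, with 16 and 18 genes below 0, and 3 called lower with the weights, Cs, Ogdh and Mdh2. Cs, citrate synthase, was at 92.9, 95.1 and 90.9 FPKM in controls, 95.1 FPKM in mutant 1, and 73.5 and 73.4 FPKM in mutants 2 and 3, and it fell by 0.34 with array weights (limma adjusted p = 0.0432), against -0.21 with equal weights. The malate dehydrogenase gene Mdh2 was at 214, 230 and 223 FPKM in controls and 133, 180 and 177 FPKM in mutants, without overlap, and fell by 0.33 with array weights (limma adjusted p = 0.0479), against -0.46 with equal weights. The mitochondrial ribosome, which translates the subunits encoded in mitochondrial DNA, had a median of -0.11 and -0.18 over 77 of 78 listed genes, with 55 and 70 below 0, and 3 called lower with array weights, Mrps23, Mrpl16 and Mrpl51. Mrps23 was at 75.2, 77.8 and 76 FPKM in controls and 45.2, 56.6 and 56.3 FPKM in mutants, without overlap, and fell by 0.43 with array weights (limma adjusted p = 0.0245), against -0.53 with equal weights. Genes of mitochondrial import and cristae had medians of -0.13 and -0.18 over 20 genes, with 16 and 19 below 0. In that list Slc25a5, an ADP/ATP carrier, was at 150, 167 and 157 FPKM in controls and 120, 109 and 125 FPKM in mutants, and its log2 change was -0.41 with array weights (limma adjusted p = 0.0502) and -0.42 with equal weights. With equal weights limma's adjusted p was 0.695 for Cs, Mdh2, Mrps23 and Slc25a5, and without mutant 1 it was 0.102, 0.115, 0.0714 and 0.11.

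Regulators of mitochondrial transcription and biogenesis had medians of -0.14 with equal and -0.13 with array weights over 17 of 20 listed genes, with 12 and 14 below 0 and none called. Electron carriers and other partners had -0.34 and -0.14 over 11 of 12 genes, with 7 below 0 in both. Their Cyc1, the cytochrome c1 of complex III, was at 106, 110 and 117 FPKM in controls, 109 FPKM in mutant 1, and 89.2 and 86.5 FPKM in mutants 2 and 3. Assembly factors had medians of -0.23 and -0.14 over 13 genes for complex I and -0.29 and -0.05 over 27 of 28 genes for complexes II to V, with 9 and 17 below 0 in both fits. Ndufaf7, an assembly factor of complex I, was at 10.6, 10.3 and 10.5 FPKM in controls and 3.96, 7.15 and 7.92 FPKM in mutants, without overlap, and its log2 change was -0.41 with array weights (limma adjusted p = 0.0818) and -0.69 with equal weights (limma adjusted p = 0.695). All 3 mutants lay below all 3 controls for 50% of the tricarboxylic acid cycle genes, 41.2% of the regulators and 33.8% of the mitochondrial ribosome. The share was 25% for import and cristae and 9.09% for electron carriers and partners. For assembly factors it was 23.1% for complex I and 22.2% for complexes II to V. It was 31% of the members and 11.9% of all tested genes. Differences between these lists were not tested.

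**Figure D4:**
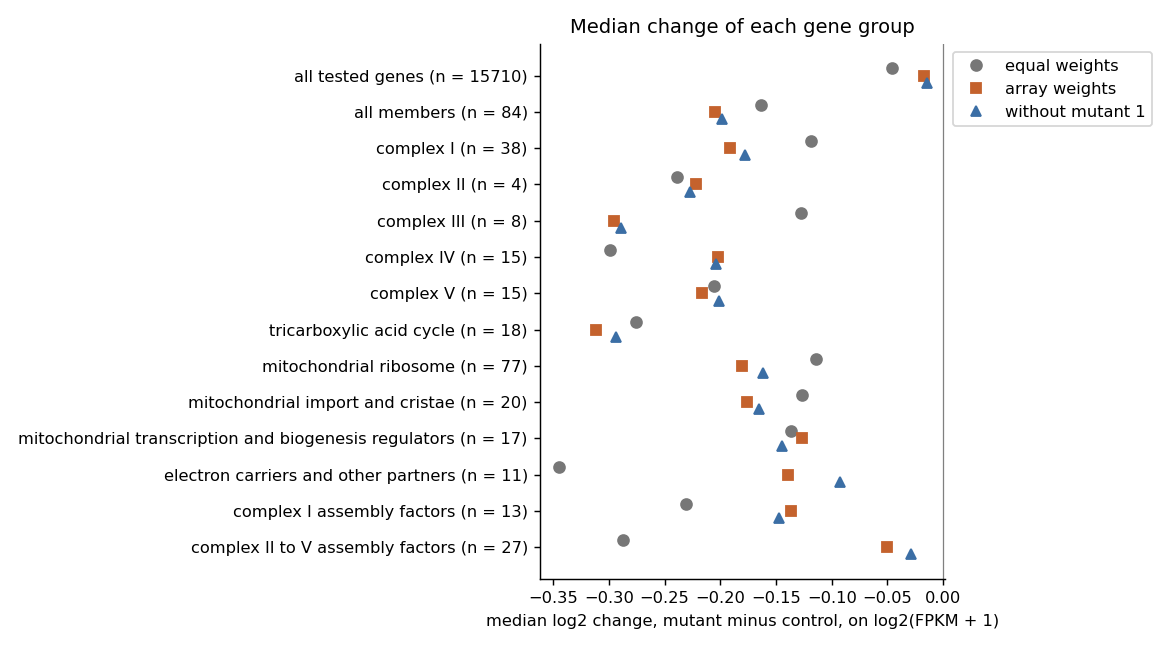
Median log2 change (mutant minus control, horizontal axis) of the members, of each complex and of the other mitochondrial lists under the 3 fits, with the number of genes beside each name. All medians lie below 0, those of the 5 complexes lie below the median of all tested genes in each fit, and that of complex III moves from -0.13 with equal weights to -0.30 with array weights.

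Markers of other tissues moved beside the members, and their part in the lower values was not tested. The summed FPKM of 11 skeletal muscle markers was 4586, 4671 and 6414 in controls and 3809, 4128 and 3530 in mutants. Of these sums, Mylpf alone held 2278 to 3105 FPKM in controls and 1343 to 1971 FPKM in mutants. With equal weights 8 of these genes had a log2 change below 0, while Actn3, Pygm and Myog were at 0.87, 0.25 and 0.03. Of the fat markers 8 of 10 were tested, all 8 were below 0, and their sum was 164, 177 and 203 FPKM in controls and 63.7, 107 and 86.1 FPKM in mutants. Cox8b stands in this list and is itself a member, and without it the sum was 109, 139 and 139 FPKM in controls and 12, 71.1 and 51.1 FPKM in mutants. Ucp1, which defines brown fat, was listed at 0.0831 FPKM in control 2 and at 0 in the other 5 libraries. In both marker lists the sums of the mutants were thus below those of the controls, for fat also without Cox8b. The 12 cartilage markers, which include Col2a1 and Acan and mark the labelled tissue, were at 4025, 4444 and 5199 FPKM in controls and at 6867, 5879 and 6226 FPKM in mutants, with 0 below 0. Epithelial markers summed to 688 to 699 FPKM in controls and 377 to 419 FPKM in mutants. Of these 8 genes the 6 keratins had a log2 change below 0, and Epcam and Cdh1 were at 0.21 and 0.24. All 4 motile cilia markers were below 0, with sums of 269 to 376 FPKM in controls and 206 to 242 FPKM in mutants. Erythroid markers (1125 to 1310 FPKM in controls, 963 to 1165 FPKM in mutants) and neuronal markers (128 to 279 and 190 to 237 FPKM) overlapped between the groups. Without the muscle isoforms Cox6a2, Cox7a1 and Cox8b the members' median log2 change was -0.16, with equal weights, as with them. Leaving out so few genes can hardly move a median, and the part of muscle in the other members was not tested.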

How the data were processed

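Cranial bases were dissected at E15.5 and stored in RNAlater, and RNA was extracted with a Norgen kit for Illumina libraries, per the labels' protocols. The deposited table gives 1 value per gene and library. Cufflinks (no version given) and the build mm9 are named per the submitters' processing notes. The values were read as FPKM made by the authors, a unit inferred from that tool and the values. The authors' deposited p-value comes from an unnamed test, and neither aligner nor annotation is given in the sources used here. The code 999999999 marks a missing value in 15 entries, none a member.

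Entries with a mean of at least 1 FPKM went into limma 3.58.1 (R 4.3.3), fitted to log2(FPKM + 1), a scale that understates changes of low genes. Genotype was the sole term. The moderated test (eBayes, trend and robust) was two-sided, with Benjamini-Hochberg adjustment over all 15710 tested entries and a threshold of 0.05. Alternatives were array weights, each library left out, pseudocounts of 0.1 and 5, no minimum or 10 FPKM, equal upper quartiles, quantile normalization, no trend or robust estimate, and the title word as a fixed block or as a random effect (statmod 1.5.0, consensus correlation 0.11). The code was tested on simulated data. Shared sequence was counted as 50-base stretches of the longest coding GENCODE M21 transcript found in other genes' transcripts. Promoters are of GRCm38.p6, another build than that of the files. They were matched by Ensembl gene ID, and otherwise by symbol or synonym.

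Members and lists were chosen with earlier results of these data known. Named members were, for each complex, the highest and lowest by mean FPKM and the 2 with the smallest array-weighted p, any with an adjusted p under 0.05, the tissue-restricted isoforms with their partners, the factors and any member at 0 in a library. In each related list the 2 genes with the smallest array-weighted p were named. Replicates are separate embryos by their titles, and their numbers follow accession order and pair nothing.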

Additional observations from a re-analysis of the deposited data

How the results depend on the processing

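The table gives no counts, so that counting error is unknown. With 3 embryos a group and 1 library apart, the direction of low members and of those sharing much sequence with other genes is uncertain. Some abundant members, among them Ndufa3, Atp5g3, Uqcrq and Uqcrc2, also changed direction under an alternative. Calls among members went from 0 to 6 with array weights and stayed at 0 under every other alternative run. Calls over all tested genes went from 0 to 320 with array weights, 7 without mutant 1, and 1 each with a minimum of 10 FPKM and with quantile normalization, a range of 0 to 7 over the libraries left out. In the lists of the tricarboxylic acid cycle and of the mitochondrial ribosome, array weights gave 3 calls each in place of 0. The members' median log2 change of -0.16 became -0.20 with array weights and -0.26 with equal upper quartiles, where the median of all tested genes was -0.13. It ranged from -0.20 without mutant 1 to -0.13 without mutant 3, and was -0.11 and -0.21 within the title words M3150 and M3159, alternatives added after seeing the data. Its difference from that of all tested genes was -0.12 with equal weights, -0.13 with equal upper quartiles and -0.19 with array weights. The difference in the members' mean share of summed FPKM, -0.279 percentage points, became -0.308 among tested genes without the 10 most abundant and -0.283 without the 4 factors.

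Of 920 values of 58 named genes under the alternatives, 888 kept their direction and side of the threshold, 10 passed it and 22, of 8 genes, reversed. With array weights Atp5g2 was at 0.56, Atp5l at 0.47, Atp5s at -0.13, Ndufa3 at -0.27 and Ndufs6 at -0.14. With quantile normalization Atp5g2 was at 0.35, Atp5g3 at 0.020 and Uqcrq at 0.0021, and with equal upper quartiles Atp5s was at -0.026 and Ndufa3 at -0.027. Over the libraries left out, the log2 change ran from -0.96 to 0.66 for Atp5g2, -0.10 to 0.019 for Atp5g3, -1.44 to 0.47 for Atp5l, -0.20 to 0.28 for Atp5s, -0.27 to 0.27 for Ndufa3, -0.14 to 0.52 for Ndufs6, -0.47 to 0.15 for Uqcrc2 and -0.20 to 0.10 for Uqcrq. The cause was not tested. The labels give no replicate numbers to pair. With the title word as a fixed block, added after seeing the data, 2 residual degrees of freedom remain and mutant 2, alone in its word, adds nothing. This block called 0 genes (611 of all tested and 11 members at an unadjusted p under 0.05) and gave a members' median of -0.17, with Uqcrc2 at 0.049.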

Other observations

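Apart from Atp5b, which ranked at 49, no member was among the 100 tested genes with the highest mean FPKM. At the other end, 9 of the 84 members had a mean under 20 FPKM.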
